A study of Mus musculus with 6 samples.

Results

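The genes described here are 9 secreted growth factors known from the spermatogonial niche: Gdnf, Fgf2, Fgf7, Kitl, Csf1, Lif, Igf1, Hgf and Wnt5a. They were taken by name and not by a cut on their values, though earlier results of these data were known. Their symbols were matched to the gene identifiers of a raw count table of 31384 genes, which held all 9. The table came from bulk RNA sequencing of cultured mouse spermatogonial stem cells (a cell line), with 2 libraries in each of 3 groups, collected after 18 days in culture. In the LOVA group, 5 uM lovastatin, an inhibitor of HMG-CoA reductase, took the place of GDNF in the medium. The NTC group received neither GDNF nor lovastatin, and the PTC group received 10 ng/mL recombinant rat GDNF. All groups shared 10 ng/mL EGF, 10 ng/mL FGF2 and 5000 U of LIF, added as recombinant proteins, and grew on mouse embryonic fibroblast (MEF) feeders whose division had been stopped with mitomycin C. The added proteins carry no RNA, so the counts of Gdnf, Fgf2 and Lif below are transcripts made in the dish. The labels name a single cell line and do not say whether the feeders were removed before RNA extraction. Nor do they state that both libraries of 1 group are separate cultures; p-values then measure the spread between these samples alone, which may be technical.

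Spermatogonial stem cells renew in the testis under factors released by Sertoli, peritubular, interstitial and vascular cells. GDNF acts through the RET receptor and its co-receptor GFRA1 and is the best known of these factors, and cultured stem cells are usually grown with GDNF, FGF2 and a fibroblast feeder layer. CSF1, IGF1, LIF and WNT5A have each been studied as further supports of spermatogonia. KIT ligand, the product of Kitl, acts on the KIT receptor of differentiating spermatogonia. FGF7 and HGF are typical products of mesenchymal cells that act on neighbouring epithelia, through a splice form of FGFR2 and through MET.

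Total counts lay between 12454671 and 22668087 per library, and a floor of 3 counts equalled 0.128 to 0.258 CPM (counts scaled to a common library size after TMM). Intervals of fold changes include the spread between libraries, whereas the floor covers counting error only. The libraries contained germ cell RNA, with all 19 pan-germ-cell markers detected in each and a summed share, in libraries A and B, of 0.372% and 0.200% of counts in LOVA, 0.310% and 0.207% in NTC, and 0.553% and 0.563% in PTC. They also contained fibroblast RNA in unequal amounts. All 21 feeder fibroblast markers were detected in every library, and together they held 1.87% and 3.49% of counts in LOVA, 2.09% and 3.47% in NTC, and 0.180% and 0.741% in PTC. The 10 macrophage markers held 0.0418% and 0.0499% in LOVA, 0.188% and 0.238% in NTC, and 0.0274% and 0.0236% in PTC. Summed markers of Sertoli and Leydig cells, which make several of these factors in the testis, were scarce. Sertoli markers summed to between 0.00177% and 0.00647% of counts with Fshr at 0 throughout, and Leydig markers to at most 0.000807% with Hsd17b3 at 0. Of the Sertoli list, Wt1 had 9.22 to 28 CPM and Clu 2.45 to 36.6 CPM over the libraries. No list of peritubular markers was used, so that source was not checked. Endothelial markers lay between 0.00308% and 0.0105%. In bulk RNA, fewer cells of a type and less RNA per cell cannot be told apart.

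In the cultures without GDNF, 7 of the 9 factors had higher transcript levels than in the cultures with GDNF, with or without lovastatin, and none was lower. Fgf2, Fgf7, Kitl, Csf1, Lif, Igf1 and Hgf rose in NTC relative to PTC, at a Benjamini-Hochberg adjusted p under 0.05 in edgeR's quasi-likelihood test over 16121 genes. The same 7 rose in LOVA relative to PTC. Over the whole count matrix 21.5% of tested genes were called higher in NTC minus PTC and 12.9% lower, and in LOVA minus PTC 19.8% were called higher and 10.8% lower. The median log2 fold change of the 9 members was 2.73 in NTC minus PTC, beside -0.02 over all tested genes, and 3.06 in LOVA minus PTC, beside 0. These comparisons share the PTC libraries. All members passed the filter on low counts. The directions hold relative to total RNA: with libraries scaled to the feeder marker counts, no member was called in either comparison and the fold change turned negative for 5 of 9 in NTC minus PTC and 4 of 9 in LOVA minus PTC. The count in NTC minus PTC was 0 without the NTC B library, where only 1 gene of the whole table was called, and 4 without PTC A. In LOVA minus PTC it was 4 without LOVA B and 3 without PTC A.

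**Figure D1:**
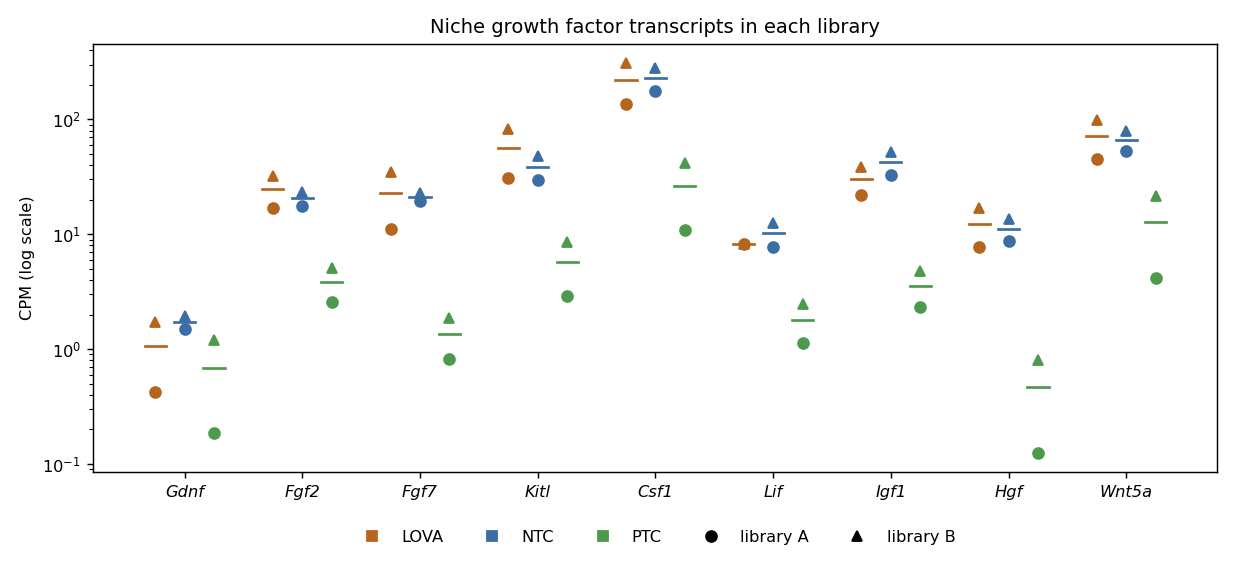
Transcript level of each niche growth factor in each library, in CPM on a log axis. Circles are libraries A, triangles libraries B, and short lines the group means. For Csf1 the LOVA libraries stand at 137 and 307 CPM and the NTC libraries at 178 and 282 CPM, against 11.0 and 42.0 CPM in PTC, and each B library lies above its A library for every gene.

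The factors differed widely in abundance. Per transcript length (TPM over merged exons), Csf1 was the most abundant in every group, with a mean of 138 ± 69.6 TPM in LOVA, 136 ± 38.7 TPM in NTC and 18.8 ± 15.3 TPM in PTC (SD, n = 2 each). On the CPM scale it made up 48.9% and 49.5% of the summed counts of the 9 members in LOVA, 51.0% and 52.7% in NTC, and 43.6% and 47.5% in PTC. In NTC the mean TPM followed the order Csf1, Wnt5a (26.4), Fgf7 and Kitl (20.5 each), Igf1 (13.3), Fgf2 (9.47), Lif (7.32), Hgf (4.87) and Gdnf (1.47). Neighbours in this order whose library ranges overlapped were Wnt5a and Fgf7, Fgf7 and Kitl, and Fgf2 and Lif. In LOVA the order was Csf1, Kitl (31.3), Wnt5a (30.1), Fgf7 (23.3), Fgf2 (12), Igf1 (10.1), Lif (6.29), Hgf (5.61) and Gdnf (0.954), and only Csf1, Igf1 and Hgf stood above the next gene without overlap. In PTC the library ranges of every pair of neighbours overlapped, from Wnt5a (6.15 TPM) down to Gdnf (0.704 TPM) and Hgf (0.244 TPM). Hgf was thus below Gdnf in mean TPM in PTC, and above it in both LOVA and NTC. Compared within the same library, most neighbours kept their order in both libraries of a group. Exceptions were Fgf7 and Lif in PTC, Fgf7 and Kitl in NTC, and in LOVA Kitl and Wnt5a, and Lif and Hgf.

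The start regions of 8 members are listed by RefSeq (GRCm38.p6), as 10 windows of the 250 bases before a transcription start; Wnt5a is not among them. The windows of the most abundant member, Csf1, and of Fgf7 and Hgf (the first of its 2), which had the largest fold changes, are shown with that of Lif, which held a motif match. A pair of short motifs was searched on both strands, the AP-1 motif TGANTCA and the TEAD motif GGAATG; no window of a member held both, so no matches overlapped. A match to AP-1 was found in Lif (TGACTCA, 228 to 222 bases before the start, in capitals) and in Igf1 (TGAATCA, 37 to 31 bases before the start), that is in 2 of 10 windows, beside 6.75% of all 32851 windows. The TEAD motif was in 0 of 10 windows, beside 12.6% of all. A match describes the letters only. The windows shown lie at chr3:107760470-107760719 on the minus strand (Csf1), chr2:126034408-126034657 (Fgf7), chr5:16553245-16553494 (Hgf) and chr11:4257318-4257567 (Lif), the last 3 on the plus strand, and only the Lif window touches an annotated exon of its gene in GENCODE M21, by 11 bases. Of the windows not shown, those of Igf1 and Fgf2 lie wholly within annotated exons of their genes. The Kitl window overlaps an exon by 191 bases and the other Hgf window by 150 bases. For neither Gdnf window was the sequence after the start found in a GENCODE M21 transcript of Gdnf.
Csf1: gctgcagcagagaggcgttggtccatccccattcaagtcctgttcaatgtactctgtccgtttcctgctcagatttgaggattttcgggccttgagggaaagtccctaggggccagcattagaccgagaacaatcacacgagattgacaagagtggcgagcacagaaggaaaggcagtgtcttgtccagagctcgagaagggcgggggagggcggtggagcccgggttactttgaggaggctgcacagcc
Fgf7: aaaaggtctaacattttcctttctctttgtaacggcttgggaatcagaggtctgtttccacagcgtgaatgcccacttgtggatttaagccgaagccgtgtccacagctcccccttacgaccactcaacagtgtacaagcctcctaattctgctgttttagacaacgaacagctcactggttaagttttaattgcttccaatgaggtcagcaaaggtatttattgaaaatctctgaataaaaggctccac
Hgf: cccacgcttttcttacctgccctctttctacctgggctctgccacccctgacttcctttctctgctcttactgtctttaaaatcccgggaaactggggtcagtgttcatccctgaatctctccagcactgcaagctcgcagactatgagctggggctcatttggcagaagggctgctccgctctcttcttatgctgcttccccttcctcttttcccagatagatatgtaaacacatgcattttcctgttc
Lif: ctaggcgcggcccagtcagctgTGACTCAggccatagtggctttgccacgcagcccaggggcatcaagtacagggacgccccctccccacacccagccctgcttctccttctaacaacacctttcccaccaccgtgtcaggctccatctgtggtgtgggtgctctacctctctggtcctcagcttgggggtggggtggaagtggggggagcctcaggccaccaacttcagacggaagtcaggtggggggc

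Among the self-renewal factors, Gdnf itself was barely transcribed. Its gene lies on chromosome 15 (7810846-7837575, plus strand, mm10, as are all coordinates here). Libraries A and B held 6 and 20 counts in LOVA, 19 and 30 counts in NTC, and 3 and 28 counts in PTC, or 0.427 and 1.72 CPM, 1.51 and 1.93 CPM, and 0.188 and 1.19 CPM. Both NTC libraries lay above both PTC libraries, but LOVA overlapped each of the other groups. The log2 fold change was 1.26 in NTC minus PTC (95% interval -0.96 to 3.48, adjusted p = 0.32) and 0.55 in LOVA minus PTC (-1.73 to 2.84, adjusted p = 0.675), and neither was called. At these counts, which are near the floor in PTC A, changes of several fold in either direction were not resolved.

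Fgf2, the factor most often supplied together with GDNF, lies on chromosome 3 (37348346-37410108). It had 17.1 and 32.2 CPM in LOVA, 17.6 and 23.4 CPM in NTC, and 2.57 and 5.11 CPM in PTC. LOVA and NTC overlapped and both stood clear of PTC. It was 5.27-fold higher in NTC than in PTC (log2 2.40, SE 0.45, adjusted p = 0.0136) and 6.32-fold higher in LOVA than in PTC (log2 2.66, SE 0.46, adjusted p = 0.0171). Without PTC A the adjusted p was 0.0507 in the first and 0.0506 in the second comparison, and without PTC B the log2 fold changes were 2.99 and 3.25.

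Lif encodes a cytokine of the IL-6 family, which signals through LIFR and gp130, and lies on chromosome 11 (4257557-4272514). It had 8.19 and 8.26 CPM in LOVA, 7.81 and 12.6 CPM in NTC, and 1.13 and 2.47 CPM in PTC. Its LOVA libraries were the closest pair of any member, at 1.01-fold between B and A. The rise over PTC was 5.56-fold in NTC (log2 2.47, SE 0.46, adjusted p = 0.0135) and 4.48-fold in LOVA (log2 2.16, SE 0.46, adjusted p = 0.022). Leaving out PTC A gave an adjusted p of 0.0518 and 0.086 in the same order, and leaving out LOVA B gave 0.0636 in LOVA minus PTC. Without PTC B the log2 fold changes were 3.16 and 2.85.

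Csf1, the macrophage colony-stimulating factor, lies on chromosome 3 (107741048-107760469, minus strand). Its counts put it at 137 and 307 CPM in LOVA, 178 and 282 CPM in NTC, and 11.0 and 42.0 CPM in PTC. It was 8.64-fold higher in NTC than in PTC (log2 3.11, SE 0.71, adjusted p = 0.0228) and 8.33-fold higher in LOVA than in PTC (log2 3.06, SE 0.71, adjusted p = 0.0271). PTC A and B differed 3.83-fold, and this gene had one of the widest intervals, from 1.39 to 4.83 in NTC minus PTC. Its call was among the less stable: adjusted p was 0.0885 and 0.0934 in NTC minus PTC without LOVA A and without LOVA B, and 0.0731 with only the compared groups fitted. In LOVA minus PTC it was 0.0838 and 0.257 without LOVA A and LOVA B, 0.0542 without NTC B and 0.0529 without PTC A. The size of the change moved too, with log2 fold changes in NTC minus PTC of 2.45 without PTC A and 4.38 without PTC B. In LOVA minus PTC they were 2.40 without PTC A, 4.33 without PTC B and 2.36 without LOVA B.

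Igf1, which acts through the IGF1 receptor and is made by many mesenchymal cells, lies on chromosome 10 (87858265-87937042). It had 22.0 and 38.4 CPM in LOVA, 33.0 and 51.6 CPM in NTC, and 2.32 and 4.77 CPM in PTC. It had the smallest adjusted p of the members in NTC minus PTC, with an 11.7-fold rise (log2 3.55, SE 0.47, adjusted p = 0.0087). In LOVA it stood 8.37-fold above PTC (log2 3.06, SE 0.46, adjusted p = 0.0167). Of the leave-one-out fits only that without NTC B ended a call for this gene (adjusted p = 0.060, NTC minus PTC). Without PTC B the log2 fold changes were 4.18 in NTC minus PTC and 3.69 in LOVA minus PTC.

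Wnt5a, a WNT ligand that signals mostly without beta-catenin through ROR and Frizzled receptors, lies on chromosome 14 (28504750-28527448). It had 45.3 and 98.0 CPM in LOVA, 52.6 and 79.5 CPM in NTC, and 4.14 and 21.5 CPM in PTC. The groups without GDNF did not overlap PTC, yet the PTC libraries differed 5.20-fold from each other. The log2 fold change was 2.35 in NTC minus PTC (SE 0.76, 95% interval 0.51 to 4.19, adjusted p = 0.0556) and 2.46 in LOVA minus PTC (SE 0.76, 0.62 to 4.31, adjusted p = 0.053), so it passed in neither. DESeq2 gave adjusted p of 0.0452 and 0.0371 and limma-voom 0.0319 and 0.0358 in these comparisons. edgeR also called Wnt5a in both with germ-cell scaling (adjusted p = 0.0371 and 0.0391), with no filter on low counts, and with the column letter as a replicate block (adjusted p = 0.00336 and 0.00345). Without PTC B the log2 fold changes were 3.99 and 4.10 (adjusted p = 0.00552 and 0.0058), without PTC A they were 1.61 and 1.73, and without LOVA B that in LOVA minus PTC was 1.80.

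Kitl, the ligand of the receptor on differentiating spermatogonia, lies on chromosome 10 (100015630-100100416). It had 30.6 and 82.3 CPM in LOVA, 29.9 and 47.6 CPM in NTC, and 2.88 and 8.65 CPM in PTC. It was 6.62-fold higher in NTC than in PTC (log2 2.73, SE 0.67, adjusted p = 0.0269) and 9.62-fold higher in LOVA than in PTC (log2 3.27, SE 0.68, adjusted p = 0.0229). Gene counts do not separate its membrane-bound from its soluble form. Its adjusted p was 0.0553 without NTC A and 0.0702 without PTC A in NTC minus PTC, and 0.12 without LOVA B and 0.0551 without PTC A in LOVA minus PTC. The log2 fold change was 3.74 in NTC minus PTC and 4.28 in LOVA minus PTC without PTC B, and 2.38 in LOVA minus PTC without LOVA B.

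The mesenchymal factors Fgf7 and Hgf showed the largest fold changes. Fgf7, also called keratinocyte growth factor, lies on chromosome 2 (126034658-126091185) and had 11.2 and 35.0 CPM in LOVA, 19.4 and 23.1 CPM in NTC, and 0.815 and 1.88 CPM in PTC. It was 15.3-fold higher in NTC than in PTC (log2 3.94, SE 0.65, adjusted p = 0.0108) and 16.6-fold higher in LOVA than in PTC (log2 4.05, SE 0.65, adjusted p = 0.0167). The LOVA libraries bracketed both NTC libraries. Without PTC B the log2 fold changes of Fgf7 were 4.69 and 4.80, and in LOVA minus PTC they were 4.64 without LOVA A and 3.01 without LOVA B. Hgf, the ligand of MET, lies on chromosome 5 (16553495-16620152) and had 109 and 195 counts in LOVA, 110 and 211 in NTC, but 2 and 19 in PTC. These equal 7.76 and 16.8 CPM in LOVA, 8.76 and 13.6 CPM in NTC, and 0.125 and 0.810 CPM in PTC. It was 21.9-fold higher in NTC than in PTC (log2 4.45, SE 0.74, 95% interval 2.69 to 6.22, adjusted p = 0.0109) and 24.0-fold higher in LOVA than in PTC (log2 4.58, SE 0.75, adjusted p = 0.0167). PTC A held fewer Hgf reads than the floor of 3 counts, so the size of the fold rests largely on PTC B. Without the PTC A library the log2 fold change of Hgf in NTC minus PTC was 3.77 and without PTC B it was 6.38. In LOVA minus PTC it was 3.90 without PTC A, 6.50 without PTC B and 3.92 without LOVA B. Both genes lost the call in NTC minus PTC without NTC B, at an adjusted p of 0.0728 for Fgf7 and 0.0721 for Hgf.

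**Figure D2:**
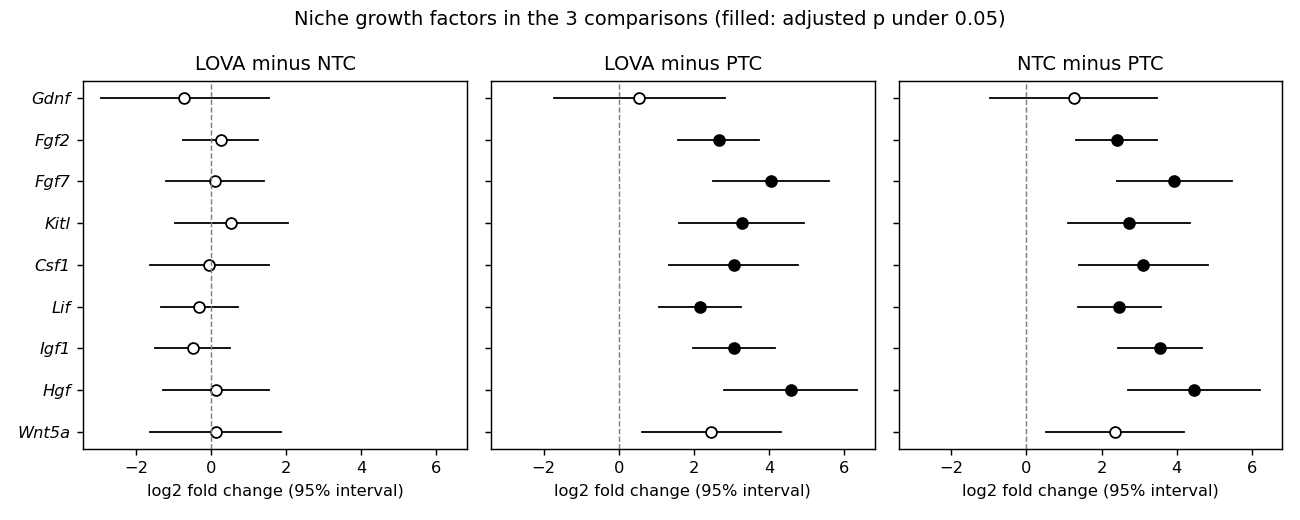
Log2 fold changes of the 9 niche growth factors in the 3 comparisons, with 95% intervals from the edgeR fit over TMM-scaled counts; filled points passed an adjusted p of 0.05 over all tested genes. In both comparisons with PTC 7 points are filled and Gdnf and Wnt5a are open, and in LOVA minus NTC every interval includes 0. With libraries scaled to feeder markers no member was called and 5 fold changes in NTC minus PTC and 4 in LOVA minus PTC turned negative.

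Lovastatin added to the GDNF-free medium came with no called change in any of the 9 factors. In LOVA minus NTC, 0 of 9 members were called by edgeR and 0 had an unadjusted p under 0.05, where the whole table had 0% called and 561 genes at an unadjusted p under 0.05. DESeq2 and limma-voom also called 0 members, while they called 21 and 1 genes higher and 87 and 9 lower among all tested genes. For each of the 9 members the LOVA and NTC libraries overlapped. Of all tested genes, 12.7% had both LOVA libraries above both NTC libraries and 13.0% had both below. The log2 fold changes ran from -0.71 for Gdnf (95% interval -2.94 to 1.53) to 0.54 for Kitl (-0.96 to 2.04), with a median of 0.11 over the members and 0.01 over all tested genes. The intervals were wide. The narrowest were those of Igf1 (log2 fold change -0.49, -1.48 to 0.50), Fgf2 (0.26, -0.74 to 1.26) and Lif (-0.31, -1.34 to 0.71), and that of Csf1 (-0.05) ran from -1.63 to 1.53. A missed threshold does not show that the levels were alike. The macrophage marker share did not overlap between these groups, at 0.0418% and 0.0499% in LOVA against 0.188% and 0.238% in NTC. All 10 macrophage markers had an unadjusted p under 0.05 in edgeR, but 0 were called.

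Feeder marker share moved with the factors, and its part in their fold changes was not tested. Within each group, all 9 members were higher in library B than in library A, and so was the feeder marker sum, by 2.05-fold in LOVA, 1.79-fold in NTC and 4.22-fold in PTC. For 5 of 9 members (Fgf2, Fgf7, Csf1, Hgf and Wnt5a) the order of the 6 libraries was exactly that of the feeder marker sum. How many of all tested genes had the same order, or were higher in B in each group, was not counted. These counts therefore cannot be read as particular to the members. The feeder markers had a median log2 fold change of 2.93 in NTC minus PTC and 2.79 in LOVA minus PTC, close to the members' 2.73 and 3.06. Per 1000 feeder marker counts, Csf1 had 7.48 and 8.20 counts in LOVA, 8.58 and 7.60 in NTC, and 6.47 and 5.87 in PTC. On this scale the PTC libraries of Csf1 still lay below all others, by far less than in CPM. Wnt5a had 2.48 and 2.62 in LOVA, 2.54 and 2.14 in NTC, and 2.44 and 3.00 in PTC, so PTC overlapped both other groups. For Fgf2, Kitl and Lif the PTC range also overlapped those of LOVA and NTC, with Kitl at 1.68 and 2.20 in LOVA, 1.44 and 1.28 in NTC, and 1.70 and 1.21 in PTC. Igf1 had 1.20 and 1.03 in LOVA, 1.59 and 1.39 in NTC, and 1.37 and 0.666 in PTC, so its PTC range overlapped that of LOVA and lay just below that of NTC.

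**Figure D3:**
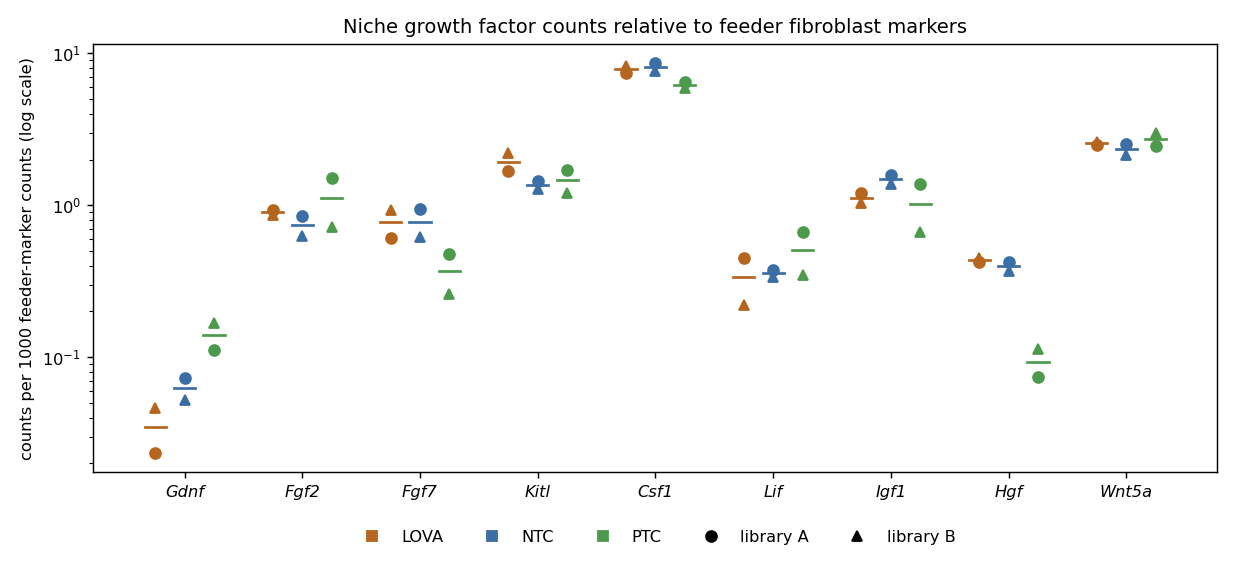
Counts of each niche growth factor per 1000 counts of 21 feeder fibroblast markers, on a log axis, in each library (circles A, triangles B, short lines group means). Hgf lies between 0.367 and 0.448 in the LOVA and NTC libraries, against 0.074 and 0.113 in PTC, while for Fgf2, Kitl, Lif and Wnt5a the PTC range overlaps those of LOVA and NTC.

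Hgf and Fgf7 also had lower values in PTC than in every other library on the feeder scale, and Gdnf had higher ones. Hgf had 0.425 and 0.448 counts per 1000 feeder marker counts in LOVA, 0.423 and 0.367 in NTC, and 0.074 and 0.113 in PTC. Fgf7 had 0.612 and 0.936 in LOVA, 0.938 and 0.622 in NTC, and 0.481 and 0.262 in PTC. Gdnf had 0.0234 and 0.046 in LOVA, 0.073 and 0.0521 in NTC, and 0.111 and 0.167 in PTC, the first PTC value from 3 counts. None of these differences passed the test when the libraries were scaled in this way, which does not show that the levels were alike. The 95% intervals in NTC minus PTC ran from -0.45 to 4.46 for Hgf, -1.12 to 3.34 for Fgf7 and -3.65 to 1.25 for Gdnf. The log2 fold change of Hgf was then 2.00 in NTC minus PTC (adjusted p = 0.135) and 2.15 in LOVA minus PTC (adjusted p = 0.11), that of Fgf7 was 1.11 and 1.10 (adjusted p = 0.374 and 0.376), and that of Gdnf was -1.20 and -2.02. This scaling moved the median of all tested genes to -3.27 in NTC minus PTC and -3.14 in LOVA minus PTC. The members' medians were -0.09 and 0.15, with all 9 above the median of all genes, as with TMM scaling. A new scaling shifts all genes by similar amounts, so the members' place relative to that median is not a separate result. Scaling to pan-germ-cell markers moved the median of all genes to 1.02 and 0.97 and the members' medians to 3.85 and 4.16.

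The 23 receptors of these ligands were all tested. In NTC minus PTC 7 were called higher and 2 lower, beside 21.5% and 12.9% of all tested genes, with a median log2 fold change of 0.47. In LOVA minus PTC 7 were called higher and 1 lower, beside 19.8% and 10.8%, with a median of 0.41. The Frizzled receptors Fzd1 (log2 fold change 3.17, SE 0.73, adjusted p = 0.0229) and Fzd4 (2.42, SE 0.53, adjusted p = 0.0186) rose in NTC relative to PTC. In LOVA relative to PTC, Fzd1 (3.24, SE 0.73, adjusted p = 0.0259), the WNT5A receptor Ror1 (2.41, SE 0.55, adjusted p = 0.0244) and Fzd8 (2.24, SE 0.64, adjusted p = 0.0398) had the largest rises. Ror1 (2.17, adjusted p = 0.0261) and Fzd8 (2.39, adjusted p = 0.03) were also called higher in NTC minus PTC. Fzd4 (2.09, adjusted p = 0.0291) was also called higher in LOVA minus PTC. The other receptors called higher in both were Fgfr2, whose gene counts do not show the splice form that binds FGF7, and Il6st, the gp130 subunit shared by LIF. Insr passed only the LOVA minus PTC test, and that difference between comparisons was not tested.

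Csf1r, the receptor of CSF1 and itself a macrophage marker, separated from its ligand. It had 5.48 and 7.05 CPM in LOVA, 26.4 and 42.1 CPM in NTC, and 6.90 and 3.79 CPM in PTC. It rose in NTC relative to PTC (log2 fold change 2.69, SE 0.40, adjusted p = 0.00971), and was 0.24 in LOVA minus PTC (adjusted p = 0.659). In LOVA minus NTC it was -2.45 with an unadjusted p of 0.000493 and an adjusted p of 0.215, so edgeR did not call it, whereas DESeq2 called it lower. It was the 1 receptor of 23 with an unadjusted p under 0.05 in that comparison. The abundant receptors Igf2r and Il6st had values of 0.19 and -0.02 there (adjusted p = 1 for both).

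Ret, the signalling receptor of GDNF, moved against the ligands. It had 105 and 64.5 CPM in LOVA, 68.3 and 54.1 CPM in NTC, and 291 and 199 CPM in PTC. It fell in NTC relative to PTC (log2 fold change -2.00, adjusted p = 0.010) and in LOVA relative to PTC (-1.53, adjusted p = 0.019), and stayed negative with germ-cell scaling (-0.99 and -0.65, adjusted p = 0.0532 and 0.153). Igf1r fell slightly in NTC relative to PTC (-0.62, adjusted p = 0.0325) with TMM scaling, and turned to 0.44 with germ-cell scaling. Gfra1, Fgfr1, Kit, Lifr and Met did not pass in either comparison. Met, the receptor of HGF, had 13.5 and 18.7 CPM in LOVA, 13.7 and 17.0 CPM in NTC, and 12.5 and 11.5 CPM in PTC. Without NTC B, 0 receptors were called in NTC minus PTC in either direction, 2 higher and 1 lower without PTC A, and 1 lower without NTC A or PTC B. In LOVA minus PTC 0 were called without LOVA B, and 1 higher and 0 lower without PTC A. With feeder scaling 13 receptors were called lower and 0 higher in each comparison. Of all 16121 tested genes, this scaling gave 11572 called lower and 51 higher in NTC minus PTC. In LOVA minus PTC it gave 11281 lower and 27 higher.

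**Figure D4:**
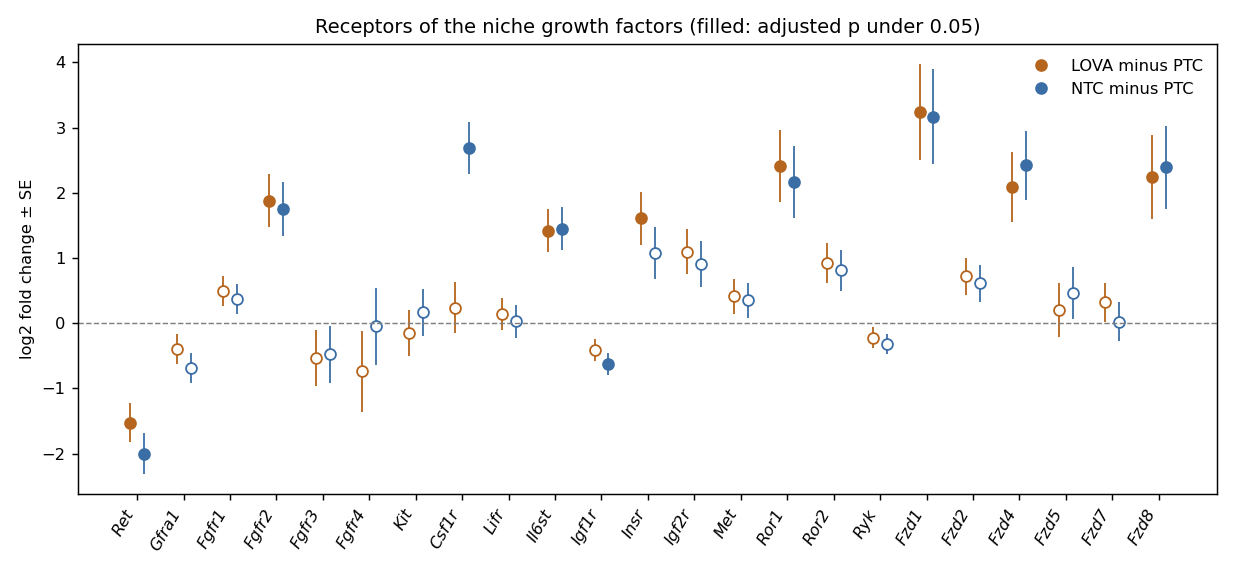
Log2 fold changes (± SE) of the 23 receptors of the niche growth factors in LOVA minus PTC and NTC minus PTC with TMM scaling; filled points passed an adjusted p of 0.05. Fzd1 is highest at 3.24 and 3.17, Ret lowest at -1.53 and -2.00, and Csf1r stands at 0.24 and 2.69. With feeder scaling 13 receptors were called lower and 0 higher in each comparison, and with germ-cell scaling 9 higher and 0 lower. Of all 16121 tested genes, feeder scaling gave 11281 called lower in LOVA minus PTC and 11572 in NTC minus PTC. Germ-cell scaling gave 4510 and 5309 called higher in the same order.

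Other ligands of the same families were mixed. Of 44 listed, 26 were tested, and 10 were called higher and 0 lower in NTC minus PTC (median log2 fold change 1.42), and 9 higher and 0 lower in LOVA minus PTC (median 0.96). Over all tested genes, 21.5% were called higher and 12.9% lower in NTC minus PTC (median -0.02). In LOVA minus PTC these were 19.8% and 10.8% (median 0). Wnt11 (4.29, SE 0.81, adjusted p = 0.0137), Wnt16 (3.83, SE 0.69, adjusted p = 0.0127) and the cytokine Il6 (3.23, SE 0.85, adjusted p = 0.029) had the largest rises in NTC relative to PTC. Wnt16 (3.67, SE 0.69, adjusted p = 0.0181), Fgf10 (3.23, SE 0.48, adjusted p = 0.0167) and Wnt11 (3.17, SE 0.83, adjusted p = 0.032) had the largest in LOVA relative to PTC. Wnt11, Wnt16 and Il6 rest on few counts in PTC, with 4 and 1, 1 and 8, and 2 and 16 counts in libraries A and B, so each has a PTC library below the floor of 3 counts and the sizes and order of these folds are loose. Fgf10, the closest relative of Fgf7 and a ligand of the same receptor form, had 11.3 and 21.8 CPM in LOVA, 12.2 and 16.4 CPM in NTC, and 1.19 and 2.26 CPM in PTC. Igf2, a ligand of IGF1R, exceeded every member in counts. It had 1650 and 3060 CPM in LOVA, 1540 and 2570 CPM in NTC, and 103 and 449 CPM in PTC (log2 fold change 2.90 in NTC minus PTC, adjusted p = 0.0282). In each comparison with PTC, 8 of the 26 had negative values, and none of these was called. Nrtn, Wnt3, Wnt5b, Wnt9b, Fgf8, Fgf16 and Fgf22 were negative in both, with Fgf22 at -0.56 in NTC minus PTC and -1.35 in LOVA minus PTC. With germ-cell scaling Nrtn, Wnt3 and Fgf16 stayed negative in NTC minus PTC. Wnt5b (0.02), Fgf8 (0.32), Fgf22 (0.50) and Wnt9b (0.62) did not. In LOVA minus NTC no gene of this list was called or had an unadjusted p under 0.05. Igf2 and Wnt3 were at 0.20 and -0.19 there.

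Of 11 EGF family ligands, 9 were tested, and 4 were called higher in NTC minus PTC and 3 in LOVA minus PTC. Over all tested genes, 21.5% and 19.8% were called higher. Ereg (2.74, SE 0.70, adjusted p = 0.0293), Nrg1 (2.57, SE 0.67, adjusted p = 0.0282) and Tgfa (2.50, SE 0.62, adjusted p = 0.0246) rose in NTC relative to PTC, and in LOVA relative to PTC they stood at 2.62, 2.81 and 2.64. Egf itself was not called. The IGF binding proteins, which hold IGF1 in the extracellular space, had 6 of 7 genes tested. Of these, 4 were called higher in each comparison with PTC, beside the same shares of all tested genes. Igfbp3 had 497 and 954 CPM in LOVA, 703 and 1260 CPM in NTC, and 37.9 and 156 CPM in PTC. Igfbp3 (3.34), Igfbp7 (3.27) and Igfbp4 (2.31) had the largest rises in NTC relative to PTC (adjusted p = 0.0209, 0.0231 and 0.00859). In LOVA relative to PTC they were at 2.90, 2.88 and 1.89 (adjusted p = 0.0309, 0.0334 and 0.0167), and Igfbp2 fell (-0.74, adjusted p = 0.0303), a call that turned to 0.19 and was lost with germ-cell scaling. All 6 had negative values in LOVA minus NTC, with a median of -0.32, and none was called.

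The list of HGF activation genes (proteases, their inhibitors and the urokinase receptor) had 7 of 10 genes tested. Of these, 3 were called higher in NTC minus PTC and 2 in LOVA minus PTC. Over all tested genes, 21.5% and 19.8% were called higher. Plau (3.16, SE 0.35, adjusted p = 0.00855), Plaur (1.96, SE 0.53, adjusted p = 0.0311) and Plat (1.53, SE 0.30, adjusted p = 0.015) rose in NTC relative to PTC. These encode urokinase, its receptor and tissue plasminogen activator. In LOVA relative to PTC, Plau (2.85, SE 0.35, adjusted p = 0.0167) and Plat (1.60, SE 0.30, adjusted p = 0.0181) rose. The inhibitors Spint1 and Spint2 had negative values in both comparisons and were not called, and with germ-cell scaling they were at 0.23 and 0.08 in NTC minus PTC. Hpn, of the same list, was also negative, at -1.68 in NTC minus PTC and -1.61 in LOVA minus PTC. St14 was at 0.51 and 0.35, and neither gene was called. Hgfac, F12 and Serpina5 did not pass the filter on low counts. Cell surface proteoglycans, which bind FGFs, HGF and WNTs on the cell surface, had 11 of 12 genes tested. Of these, 9 were called higher in each comparison with PTC, beside the same shares of all tested genes. Tgfbr3 and Sdc2 (2.70 each, adjusted p = 0.0237 and 0.0104) and Gpc6 (2.40, adjusted p = 0.0406) led in NTC minus PTC, and Tgfbr3 (2.76), Sdc2 (2.73) and Cspg4 (2.57) led in LOVA minus PTC. Sdc4, the most abundant of them, fell relative to PTC in NTC (-1.25, adjusted p = 0.0154) and in LOVA (-1.40, adjusted p = 0.0174) with TMM scaling, but was not called with germ-cell scaling. Gpc2 fell in NTC relative to PTC (-0.94, adjusted p = 0.0427) and was at 0.08 with germ-cell scaling.

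The list counts depended on the same libraries and on the scaling as the members' counts did. Without NTC B, 0 genes of these lists were called in NTC minus PTC. Without PTC A, 4 other ligands, 1 EGF family ligand, 3 IGF binding proteins, 1 HGF activation gene and 3 proteoglycans were called higher there. In LOVA minus PTC, 1 other ligand, 0 EGF family ligands, 0 IGF binding proteins, 1 HGF activation gene and 0 proteoglycans were called higher without LOVA B, and 2, 0, 2, 1 and 1 without PTC A. Without NTC A, 5 other ligands and 1 EGF family ligand were called higher in NTC minus PTC and no proteoglycan was called lower, and 4 other ligands and 2 IGF binding proteins were called higher in LOVA minus PTC. Without LOVA A or LOVA B, 2 IGF binding proteins were called higher in NTC minus PTC, and without LOVA A 2 in LOVA minus PTC. In LOVA minus PTC, 3 other ligands, 1 EGF family ligand and 2 IGF binding proteins were called higher without NTC B, and 5 other ligands without PTC B. With feeder scaling no gene of these lists was called higher in any comparison. In NTC minus PTC, 9 other ligands, 3 EGF family ligands, 2 IGF binding proteins, 4 HGF activation genes and 2 proteoglycans were called lower. In LOVA minus PTC these were 8, 3, 2, 4 and 2. Over all 16121 tested genes, this scaling gave 11572 called lower in NTC minus PTC and 11281 in LOVA minus PTC.

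The genes whose pattern over the 6 libraries was most like that of a member were sought among tested protein-coding genes with a mean of at least 5 CPM, by the root mean square difference of log2 CPM profiles centred on their means. Fgf2 was nearest to Dnm1 (0.04) and Wwtr1 (0.07). Csf1 was nearest to Vegfd (0.06) and Tgfb1i1 (0.08), and Hgf to Colec12 (0.06) and Gpm6b (0.08). Each distance is among the smallest of many over only 6 libraries, so the search itself favours small values. No comparison with distances between other genes was made. Igf1 was nearest to Anxa3 (0.08) and Enpp1 (0.09), Kitl to Prkg1 (0.10) and Epha4 (0.11), and Wnt5a to Antxr2 (0.10) and Acvrl1 (0.11). Lif had Penk (0.14) and Aldh1l1 (0.15), and Fgf7 had Olr1 (0.12) and Ifi202b (0.17), the last a member of a multigene family whose reads may be shared with copies. Gdnf, with its low counts, had the farthest nearest genes, Heyl (0.19) and Trib1 (0.26).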

How the data were processed

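Strand-specific RNA libraries were read as paired ends, per the labels' protocols. The submitters' processing notes name Trimmomatic, Bowtie2, RSEM and DESeq2, with no versions or roles, and the build mm10. The deposited table gives raw, whole-number counts for each Ensembl gene, which the authors had not normalized. If RSEM made them they are rounded estimates, which is not given in the sources used here. The names A and B are the column letters, which the labels' replicate numbers do not match. GENCODE M21 gave symbols for 31363 of 31384 genes and left 21 without, and gave coordinates and merged exon lengths for TPM.

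Genes kept by filterByExpr (16121) were scaled by TMM and fitted in edgeR 4.0.16 (R 4.3.3), with 1 coefficient per group over all 6 libraries, a robust quasi-likelihood fit in its legacy form, and 3 residual degrees of freedom. The call threshold was an adjusted p (Benjamini-Hochberg, over all tested genes) under 0.05. The fit was tested on simulated data. CPM used TMM-scaled totals, and profiles used a pseudocount of 0.5 CPM. The members, gene lists and tests were chosen with earlier results of these data known. Named genes were all members, then for each list and comparison the 3 called genes with the largest change or the 2 most abundant where none was called, and the 2 nearest profiles of each member. Other list genes (Csf1r and Fgf10 with their CPM, Ret, Igf1r, Insr, Fgfr2, Il6st, Met, Igf2, Nrtn, Wnt3, Wnt5b, Wnt9b, Fgf8, Fgf16, Fgf22, Egf, Igfbp2, Spint1, Spint2, Hpn, St14, Hgfac, F12, Serpina5, Sdc4, Gpc2 and the receptors named as not called) were chosen after their values were seen. Alternatives were DESeq2 1.42.0, limma-voom (limma 3.58.1), other scalings, no filter, the compared groups alone, the column letter as a block, and leaving out each library. Same-group libraries differed by far more than counting noise.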

Additional observations from a re-analysis of the deposited data

How the results depend on the processing

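The counts of 7 members called in NTC minus PTC and in LOVA minus PTC became 8 in both with DESeq2, limma-voom, no filter, germ-cell scaling and the column letter as a replicate block, Wnt5a being the addition, and were 7 with DESeq2 size factors. With only the compared groups they were 6 and 7. With feeder scaling they were 0 and 0. Leaving out 1 library gave 0 to 8 in NTC minus PTC and 3 to 8 in LOVA minus PTC. LOVA minus NTC had 0 members under every alternative run. The column letters share only a letter, and nothing in the labels pairs them: the differences between A and B correlated at 0.48, 0.35 and 0.31 over genes between the groups, and the replicate block gave 8 members called in each comparison with PTC and 0 in LOVA minus NTC.

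Directions turned with feeder scaling for Gdnf (-1.20), Fgf2 (-0.57), Kitl (-0.09), Lif (-0.47) and Wnt5a (-0.22) in NTC minus PTC, for Gdnf (-2.02), Fgf2 (-0.30), Lif (-0.57) and Wnt5a (-0.10) in LOVA minus PTC, and for Fgf7 (-0.01) in LOVA minus NTC, where limma-voom (-0.15) and the replicate block (-0.08) also turned Fgf7. The cause was not tested. Leaving out 1 library moved the log2 fold change in LOVA minus NTC between -0.75 and 0.41 for Csf1, -0.26 and 0.65 for Fgf2, -0.93 and 0.72 for Fgf7, -0.34 and 1.08 for Kitl, -0.53 and 0.58 for Hgf, -0.54 and 0.57 for Wnt5a, and -0.64 and 0.07 for Lif. That of Gdnf in LOVA minus PTC moved between -0.74 and 2.43. A lone library left in a group is assumed to vary like the other groups. With 2 libraries per group the intervals are wide, and the low counts of Gdnf, and of Hgf, Wnt11, Wnt16 and Il6 in PTC, limit these genes further.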
